A study of Mus musculus with 15 samples.

Results

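Whether the transcriptional effect of ABX in mouse medial prefrontal cortex (mPFC) differed between the stages after and before fear extinction was tested gene by gene. ABX is taken here in its usual sense in the field, a mixture of antibiotics given to deplete the gut microbiota; the labels give neither the drugs nor the dose. The interaction is the ABX effect after extinction (post-extinction ABX over post-extinction non-ABX) minus the ABX effect before extinction (pre-extinction ABX over pre-extinction non-ABX), in log2 units. A positive interaction means that the ABX over non-ABX ratio was higher after extinction than before it. All expressed genes were included, that is 16816 of the 27179 gene identifiers in the deposited table, and all 15 of the 15 libraries of the series.

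There were 4 libraries of ABX-treated mice and 4 of untreated (non-ABX) mice sampled after fear extinction. Before fear extinction there were 4 libraries of ABX-treated mice and 3 of non-ABX mice, whose replicate numbers are 1, 3 and 4. All were bulk RNA libraries from dissected mPFC of C57BL/6J mice, without a genotype or transgene, and no source used here gives ages. The extraction text speaks of sorted cells, whereas the source of every library is given as dissected tissue. Library totals lay between 44254906 and 57929503 counts, and each library had counts for 19621 to 19939 identifiers. Cortical markers were abundant, with Slc17a7, the vesicular glutamate transporter of cortical excitatory neurons, at 1202 to 1776 CPM (counts per 1e6 counts). The striatal marker Drd1 stood at 6.12 to 15.3 CPM, and Ttr, a choroid plexus transcript, at 0.0518 to 11.6 CPM. In bulk tissue, fewer cells of a type and less RNA per cell cannot be told apart. The sources do not say whether a library stands for 1 animal or a pool, so the p-values speak for variation among libraries alone.

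Fear extinction is the decline of a conditioned fear response when the conditioned cue is presented repeatedly without the aversive stimulus. The infralimbic division of the mPFC is required for the recall of extinction, and excitatory neurons there express activity-dependent immediate early genes during learning. Glucocorticoids, released from the adrenal cortex under stress, enter the brain and bind the glucocorticoid receptor, a transcription factor that then induces a set of target genes in neurons, glia and vascular cells. Germ-free and antibiotic-treated rodents are known for altered hormonal stress responses.

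No gene passed the interaction test. By edgeR's quasi-likelihood test 0 of 16816 genes (0%) had a Benjamini-Hochberg adjusted p under 0.05. The smallest adjusted p was 0.564, shared by Myh6, Pkp2, Fmo2 and Prr16. An unadjusted p under 0.05 was reached by 346 genes (2.06%), 217 of them with a positive interaction (1.29%) and 129 with a negative one (0.767%). With no interaction in any gene, evenly spread p-values would put a share of 0.05 under this threshold. The share seen was smaller, so the count by itself shows no excess. DESeq2 called 4 genes, the same Myh6, Pkp2, Fmo2 and Prr16. Most interactions were small: the median absolute value was 0.09, and 6 genes with a mean of at least 1 CPM exceeded 1 in either direction. The median standard error was 0.16 for the interaction, against 0.11 for the ABX effect after extinction and 0.12 for the ABX effect before it, since the interaction carries the error of both.

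Across genes, the ABX effects after and before extinction shared their sign in most genes tested. This likeness depended on the genes and libraries included. The effects were computed from separate libraries, 8 after and 7 before extinction. The same sign was seen in 12931 of 16816 genes (76.9%), with a Pearson correlation across genes of 0.578 and a Spearman correlation of 0.632. Over the 14110 genes with a mean of at least 1 CPM the correlations were 0.7496 and 0.7389, whereas with no filter on low counts the Pearson correlation was 0.07832. Genes are not independent replicates, and all genes of a stage share its libraries. Without pre-extinction non-ABX replicate 3 the Pearson correlation over all genes tested was 0.353, and without the 3 libraries with the largest share of blood transcripts it was 0.371.

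**Figure D1:**
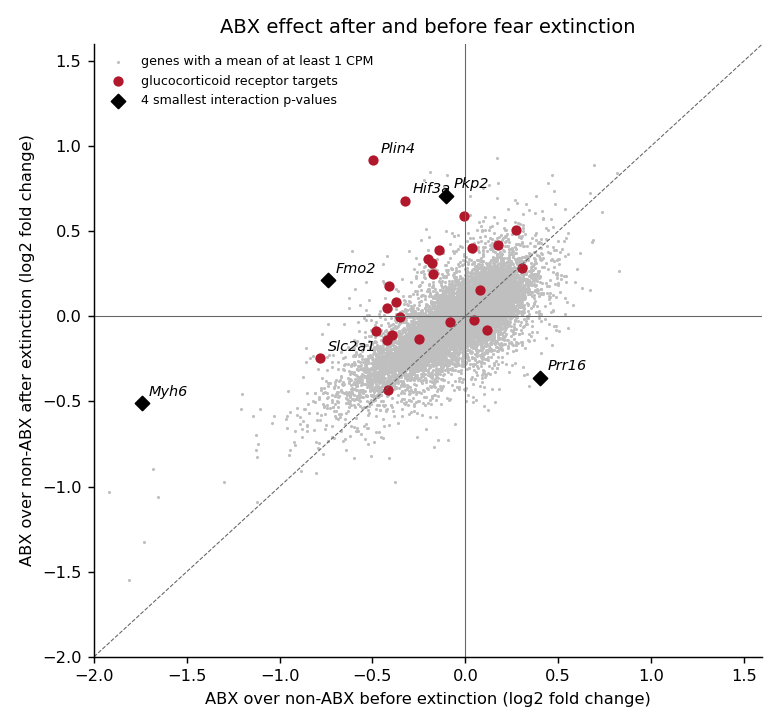
Each grey point is 1 of 14110 genes with a mean of at least 1 CPM, of which 1 lies outside the axes and is not seen. The horizontal axis is the ABX over non-ABX log2 fold change before extinction, the vertical axis the same after extinction. The dashed line marks equal effects. Red points are glucocorticoid receptor targets, many of them above the line, and black diamonds are the 4 genes of smallest interaction p, with Prr16 below the line and the other 3 above it.

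The gene of smallest p was Myh6, the alpha heavy chain of cardiac myosin (chr14:54941921-54968017, mm10). It had 1.85, 1.46, 1.83 and 1.40 CPM in post-extinction ABX libraries, against 1.87, 2.10, 2.74 and 2.62 CPM in post-extinction non-ABX libraries. Before extinction Myh6 had 1.79, 1.31, 1.09 and 1.63 CPM in ABX libraries, against 5.07, 4.74 and 4.79 CPM in non-ABX libraries. The 3 pre-extinction non-ABX libraries therefore stood above the other 12, and ABX and non-ABX libraries did not overlap at either stage, with a much narrower gap after extinction. The ABX effect was -0.51 (SE 0.16, edgeR adjusted p = 0.262) after extinction and -1.74 (SE 0.17, edgeR adjusted p = 2.5e-04) before it. That call before extinction was the only 1 among 16816 genes (0.00595%). The interaction was 1.24 (SE 0.23, 95% interval 0.74 to 1.73, edgeR adjusted p = 0.564), with DESeq2 giving 1.24 at an adjusted p of 0.00534. Myh7, the neighbouring beta heavy chain gene whose coding sequence is closely similar, had an interaction of 0.26 (SE 0.29), and the sources used here do not say how reads shared by the pair were counted.

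Pkp2 encodes plakophilin 2, a plaque protein of desmosomes (chr16:16213345-16272712). Its level was 8.96, 12.1, 11.6 and 11.1 CPM in post-extinction ABX libraries, against 6.91, 6.73, 6.48 and 6.67 CPM in post-extinction non-ABX libraries. Before extinction it stood at 4.80, 5.95, 6.70 and 6.09 CPM in ABX libraries, against 5.88, 6.72 and 6.40 CPM in non-ABX libraries. Only the 4 post-extinction ABX libraries were set apart, all above the other 11, while the 2 groups overlapped before extinction. The ABX effect was 0.71 (SE 0.11, edgeR adjusted p = 0.0455) after extinction and -0.10 (SE 0.12, edgeR adjusted p = 0.613) before it. Pkp2 was 1 of 3 genes called after extinction (0.0178%), and over the other settings and omitted libraries that adjusted p ranged between 3.49e-06 and 0.254, with the call lost on leaving out any post-extinction non-ABX library, post-extinction ABX replicate 2, 3 or 4, or pre-extinction non-ABX replicate 1 or 4. The interaction was 0.81 (SE 0.16, 95% interval 0.48 to 1.15, edgeR adjusted p = 0.564, DESeq2 adjusted p = 0.00929).

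Fmo2, a flavin-containing monooxygenase that oxidises foreign compounds (chr1:162874317-162898758), had 2.87, 3.60, 2.76 and 3.04 CPM in post-extinction ABX libraries and 2.53, 2.55, 2.72 and 2.78 CPM in post-extinction non-ABX libraries. Before extinction it had 1.48, 0.998, 1.11 and 1.41 CPM in ABX libraries and 1.93, 2.17 and 2.14 CPM in non-ABX libraries. The pre-extinction ABX libraries were the lowest 4 of the 15 and lay apart from their non-ABX counterparts, whereas after extinction the groups overlapped. The ABX effects were 0.22 (SE 0.12) after and -0.74 (SE 0.15) before extinction, and the interaction was 0.95 (SE 0.19, edgeR adjusted p = 0.564, DESeq2 adjusted p = 0.0282).

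Prr16, which encodes a proline-rich protein (chr18:51117898-51304641), showed the opposite arrangement. After extinction its level was 10.5, 9.22, 11.2 and 12.1 CPM in ABX libraries and 13.2, 13.6, 14.4 and 13.9 CPM in non-ABX libraries. Before extinction it was 13.9, 11.7, 11.9 and 12.8 CPM in ABX libraries and 11.2, 8.70 and 8.52 CPM in non-ABX libraries. ABX libraries were all lower than non-ABX libraries after extinction and all higher before it. The ABX effects were -0.36 (SE 0.10) after and 0.40 (SE 0.11) before extinction, and the interaction was -0.76 (SE 0.15, 95% interval -1.08 to -0.44, edgeR adjusted p = 0.564, DESeq2 adjusted p = 0.00929). Over all other settings and omitted libraries the interaction stayed negative for Prr16 and positive for Myh6, Pkp2 and Fmo2, while the edgeR fits gave 0 calls in each.

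**Figure D2:**
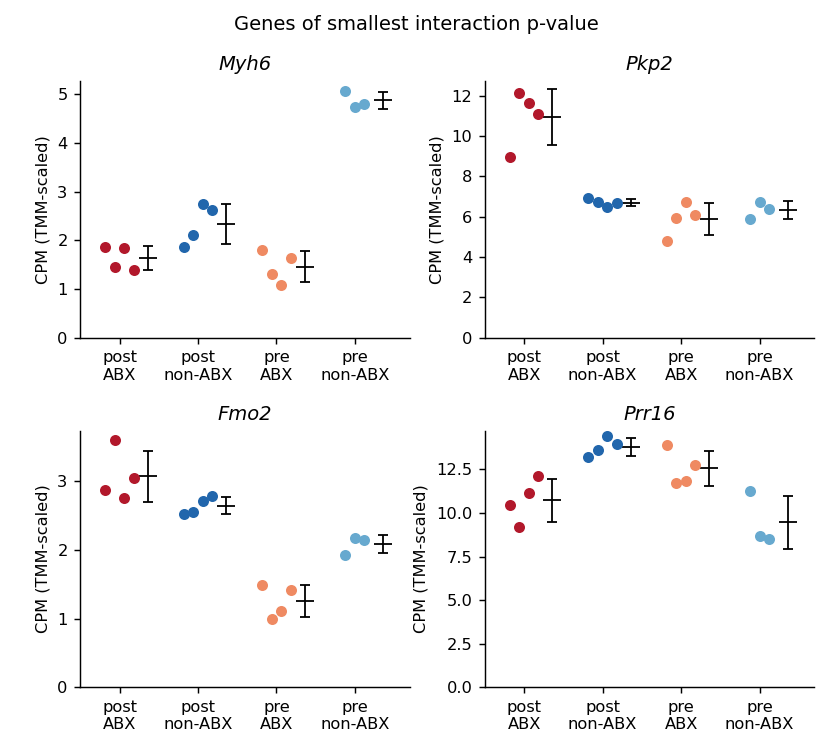
TMM-scaled CPM of Myh6, Pkp2, Fmo2 and Prr16 in each library by group (points), with the mean and SD of the group beside them. Myh6 stands out in the 3 pre-extinction non-ABX libraries, Pkp2 in the 4 post-extinction ABX libraries, and Prr16 reverses its order between the stages.

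Crossing of this kind was rare. In 5 of 16816 genes (0.0297%) the ABX and non-ABX libraries did not overlap at either stage and lay in opposite directions. With groups this small such an order also arises by chance, and the number of genes expected from chance was not computed. The count is therefore a description and no sign of an interaction. Among them were Prr16, Etv6, Sox1ot and Zfand2a, of which Zfand2a, a stress-inducible zinc finger protein, was chosen for naming after its values were seen. Etv6, an ETS-family transcriptional repressor (chr6:134035700-134270158), had 40.4, 41.8, 36.0 and 35.5 CPM in post-extinction ABX libraries and 35.1, 32.2, 34.5 and 33.7 CPM in post-extinction non-ABX libraries. Before extinction it had 32.9, 36.7, 36.9 and 35.9 CPM in ABX libraries and 42.8, 40.8 and 43.1 CPM in non-ABX libraries. ABX libraries were thus the higher ones after extinction, by a narrow margin, and the lower ones before it. The ABX effects were 0.18 (SE 0.07) and -0.24 (SE 0.07), giving an interaction of 0.43 (SE 0.10, edgeR adjusted p = 1.00). Etv6 and Zfand2a were the 2 genes (0.0119%) with ABX higher after and lower before extinction. The interaction was -0.35 (SE 0.12) for the long noncoding RNA Sox1ot, whose gene overlaps Sox1 so that their reads cannot be told apart here and 0.13 (SE 0.07) for Zfand2a.

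The remaining named genes of smallest p in each direction were of mixed function, and each had an edgeR adjusted p of 1.00. Among those with a positive interaction, Mlph, which links pigment granules to myosin, had 0.69 (SE 0.18), the small membrane protein gene Smim3 had 0.54 (SE 0.15) and Pxdn, which cross-links collagen IV, had 0.47 (SE 0.13). Mki67, the proliferation marker, had 1.00 (SE 0.30) at levels of 0.830 to 1.96 CPM over all libraries. Among those with a negative interaction, Nectin3, a cell adhesion protein of synapses and adherens junctions, stood at 21.3, 21.01, 21.2 and 18.2 CPM in post-extinction ABX libraries, against 28.0, 23.4, 29.3 and 28.0 CPM in post-extinction non-ABX libraries. Before extinction Nectin3 had 40.5, 25.6, 28.2 and 21.8 CPM in ABX libraries, against 22.6, 20.01 and 25.8 CPM in non-ABX libraries. The groups did not overlap after extinction and overlapped before it, where ABX replicate 1 was far above the rest, and the interaction was -0.76 (SE 0.22). The amino acid transporter gene Slc38a5 had -0.60 (SE 0.20) and Vgll3, a cofactor of TEAD transcription factors, -0.58 (SE 0.20). Chsy3, a chondroitin sulfate synthase, had -0.43 (SE 0.15) and the kinase gene Hunk -0.47 (SE 0.15). The muscle-enriched lamin interactor Mlip had -0.46 (SE 0.15), Sertad3, a transcriptional coregulator, -0.56 (SE 0.18), and Fam180a -0.67 (SE 0.24).

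Of 29 gene lists, the targets and receptors of the glucocorticoid pathway had the largest median interaction apart from blood cell genes, which were at trace level. The lists and their members were chosen with earlier results of these data known, so this rank and the shares below are descriptions only. Members of a list share the same libraries and are not independent of each other. All 27 members passed the filter on low counts, and 23 (85.2%) had a positive interaction, against 9023 of all 16816 genes (53.7%). The median interaction of the list was 0.39 (quartiles 0.18 to 0.54), against 0.01 over all genes. An unadjusted p under 0.05 with a positive interaction was reached by 8 of 27 members (29.6%), against 1.29% of all genes, and with a negative one by 0 members, against 0.767%. None passed the test over all genes in edgeR, DESeq2 or any other fit run, with an edgeR adjusted p of 1.00 for each. The 2 members under 1 CPM, Cebpd and Lcn2, had intervals that spanned 0. Without pre-extinction non-ABX replicate 3 the list median was 0.25 with 21 members positive, the lowest of all fits, and without pre-extinction non-ABX replicate 1 it was 0.48 with 25 positive. With a GC-content trend removed per library the median was 0.39, with 22 positive.

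The median ABX effect over these genes lay on opposite sides of 0 at the 2 stages. After extinction the median ABX effect was 0.18, with 17 of 27 members positive, and before extinction it was -0.20, with 8 of 27 positive; over all genes both medians were 0.01. In 11 members the effect was positive after and negative before extinction, and in 2 the reverse. Read the other way, across the stages, the median change after over before extinction was 0.38 in ABX libraries (19 members positive) and -0.00 in non-ABX libraries (13 positive). These stage and ABX contrasts share libraries and are not independent of each other. Groups did not overlap after extinction in 7 members, 6 with ABX higher (4.74% of all genes) and 1 with ABX lower (6.36%). Before extinction they did not overlap in 1 member, with ABX lower (3.14% of all genes).

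**Figure D3:**
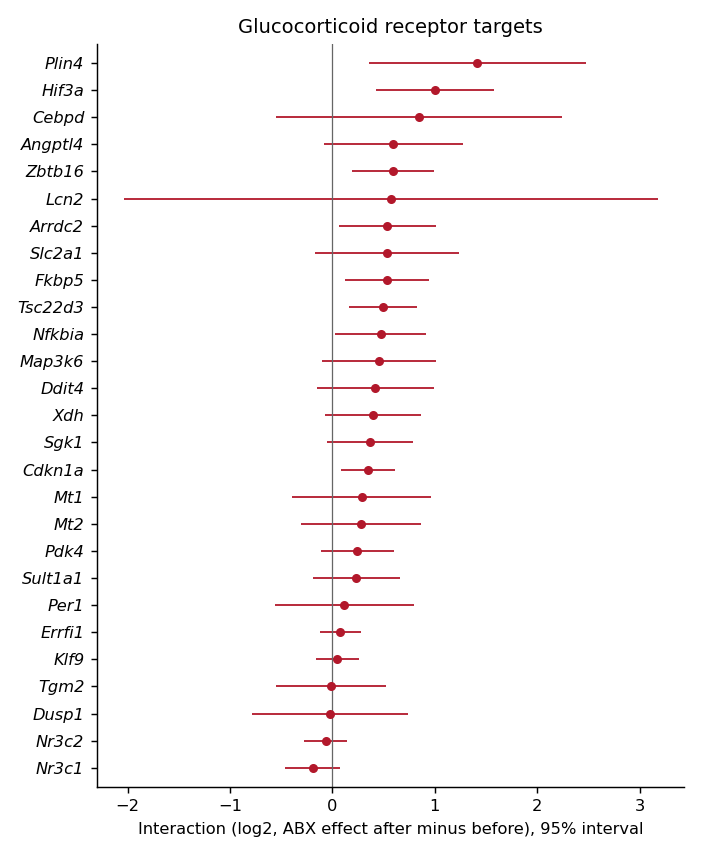
Interaction (log2 ABX effect after minus before extinction) of each of the 27 glucocorticoid list members, with 95% intervals from the edgeR fit over all genes. The intervals of 8 members lie above 0, those of the other 19 span 0, and the receptors Nr3c1 and Nr3c2 are at the lower end.

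The receptors themselves were among the members with a negative value. Nr3c1, the glucocorticoid receptor, had 125, 122, 105 and 112 CPM in post-extinction ABX libraries, against 113, 119, 122 and 136 CPM in post-extinction non-ABX libraries. Before extinction it had 151, 137, 166 and 129 CPM in ABX libraries, against 135, 124 and 144 CPM in non-ABX libraries. ABX and non-ABX libraries overlapped at both stages, and the interaction was -0.19 (SE 0.13, 95% interval -0.46 to 0.07). Nr3c2, the mineralocorticoid receptor, which also binds corticosterone, had an interaction of -0.07 (SE 0.10).

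Promoters are shown for 2 members of small p, Hif3a and Fkbp5, and for 2 members whose promoter holds a match to the receptor's binding pattern, Map3k6 and Sgk1. The glucocorticoid receptor binds DNA as a dimer at a palindromic element, for which GNACA and TGTNC separated by any 3 bases were searched, and the pattern is its own reverse complement, so 1 search covers both strands. Each sequence is the 250 bases before an annotated start, from RefSeq on GRCm38.p6 (mm10), read on the gene's strand, and capitals mark a match. Promoters were found for 21 of the 27 members, with 31 starts in all.
Hif3a, chr7:17062428-17062677, minus strand: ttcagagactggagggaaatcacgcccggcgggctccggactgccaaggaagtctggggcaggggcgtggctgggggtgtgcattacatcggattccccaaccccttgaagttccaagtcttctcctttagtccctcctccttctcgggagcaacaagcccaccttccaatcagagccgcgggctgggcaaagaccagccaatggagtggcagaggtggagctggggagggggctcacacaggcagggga
Fkbp5, chr17:28486150-28486399, minus strand: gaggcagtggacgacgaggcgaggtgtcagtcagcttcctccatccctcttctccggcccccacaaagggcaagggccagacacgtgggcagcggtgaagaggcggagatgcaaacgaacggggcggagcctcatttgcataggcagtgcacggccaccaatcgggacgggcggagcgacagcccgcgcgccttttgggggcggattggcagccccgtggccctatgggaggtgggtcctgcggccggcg
Map3k6, chr4:133240568-133240817, plus strand: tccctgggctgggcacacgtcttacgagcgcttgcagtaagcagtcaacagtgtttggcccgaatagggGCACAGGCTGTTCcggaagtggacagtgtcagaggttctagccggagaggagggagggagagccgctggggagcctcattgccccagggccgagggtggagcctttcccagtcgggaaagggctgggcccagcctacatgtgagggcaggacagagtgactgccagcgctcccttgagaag
Sgk1, chr10:21993640-21993889, plus strand: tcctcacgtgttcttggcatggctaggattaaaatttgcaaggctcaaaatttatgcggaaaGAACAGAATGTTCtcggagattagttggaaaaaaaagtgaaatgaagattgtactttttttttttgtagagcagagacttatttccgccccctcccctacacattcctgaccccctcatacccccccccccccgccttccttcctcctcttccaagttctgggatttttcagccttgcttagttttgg
The pattern was in 3 of the 31 list promoters, those of Map3k6, Mt1 and Sgk1, and in 127 of 32851 promoters of all genes (0.387%). The match began 181 bases before the start in Map3k6 and 188 bases before it in Sgk1, at 1 of several Sgk1 starts. The full palindrome, AGAACA and TGTTCT separated by any 3 bases, contains the first pattern and was in the same Sgk1 promoter and in 3 of 32851 promoters (0.00913%). A missing match concerns only these letters in this window.

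Hif3a is an alpha subunit of the hypoxia-inducible factors and an established glucocorticoid-induced gene (chr7:17030993-17062427). It had 21.8, 28.2, 26.4 and 30.8 CPM in post-extinction ABX libraries, against 16.5, 13.6, 20.6 and 16.1 CPM in post-extinction non-ABX libraries. Before extinction it stood at 11.7, 6.93, 11.5 and 16.0 CPM in ABX libraries, against 14.2, 14.1 and 14.9 CPM in non-ABX libraries. The post-extinction ABX libraries were the highest 4 of the 15, and before extinction the groups overlapped, with ABX replicate 4 above every non-ABX library. The ABX effects were 0.68 (SE 0.18) after and -0.32 (SE 0.20) before extinction, and the interaction was 1.00 (SE 0.27, 95% interval 0.43 to 1.58). Over the other settings and omitted libraries the interaction of Hif3a lay between 0.82 and 1.20.

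Fkbp5 is a cochaperone that lowers the affinity of the receptor for its hormone and is itself induced by it (chr17:28398753-28486149). Its level was 48.2, 55.9, 59.5 and 67.2 CPM in post-extinction ABX libraries, against 46.7, 43.5, 47.2 and 38.9 CPM in post-extinction non-ABX libraries. Before extinction it was 28.4, 28.0, 33.0 and 45.2 CPM in ABX libraries, against 36.9, 37.8 and 36.6 CPM in non-ABX libraries. Every post-extinction ABX library exceeded every non-ABX library, and before extinction 3 ABX libraries lay below the non-ABX libraries and replicate 4 above them. The interaction was 0.53 (SE 0.19, 95% interval 0.12 to 0.94).

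Tsc22d3, known as GILZ, a leucine zipper protein that mediates anti-inflammatory actions of glucocorticoids (chrX:140539528-140600522), was likewise highest in post-extinction ABX libraries. It had 97.9, 91.5, 85.9 and 116 CPM in post-extinction ABX libraries, against 79.2, 73.6, 85.1 and 77.3 CPM in post-extinction non-ABX libraries. Before extinction it had 60.9, 58.6, 74.7 and 79.1 CPM in ABX libraries, against 70.1, 85.2 and 77.1 CPM in non-ABX libraries. After extinction the groups did not overlap, by a margin under 1 CPM, and before extinction they did. The interaction was 0.49 (SE 0.16, 95% interval 0.16 to 0.83).

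Zbtb16, a zinc finger transcription factor (chr9:48651797-48836225), and Plin4, a coat protein of lipid droplets (chr17:56100587-56109948), overlapped between groups at both stages. Zbtb16 had 79.99, 97.7, 94.6 and 84.7 CPM in post-extinction ABX libraries and 73.5, 84.6, 87.1 and 70.0 CPM in post-extinction non-ABX libraries. Before extinction it had 54.1, 59.5, 69.9 and 89.8 CPM in ABX libraries and 99.6, 91.5 and 81.8 CPM in non-ABX libraries. Its interaction of 0.59 (SE 0.19) came mainly from the stage before extinction, where the ABX effect was -0.41, against 0.18 after extinction. Plin4 had 7.66, 10.97, 16.2 and 26.5 CPM in post-extinction ABX libraries and 8.02, 7.34, 10.1 and 7.003 CPM in post-extinction non-ABX libraries. Before extinction Plin4 had 2.04, 1.74, 2.75 and 5.14 CPM in ABX libraries and 3.72, 4.35 and 4.28 CPM in non-ABX libraries. The Plin4 level spread widely among post-extinction ABX libraries, with replicate 4 the highest, and its interaction of 1.41 had an SE of 0.50 (95% interval 0.36 to 2.47).

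Cdkn1a, the cell cycle inhibitor p21 (chr17:29090979-29100722), like Zbtb16, differed more between ABX and non-ABX libraries before extinction than after it. After extinction it had 23.1, 24.7, 24.5 and 22.6 CPM in ABX libraries and 24.6, 24.7, 24.6 and 21.4 CPM in non-ABX libraries. Before extinction it had 20.8, 24.5, 27.5 and 27.4 CPM in ABX libraries and 32.4, 33.3 and 30.3 CPM in non-ABX libraries. The pre-extinction non-ABX libraries were the highest 3 of the 15, and the other groups overlapped. The interaction was 0.35 (SE 0.12, 95% interval 0.08 to 0.61).

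**Figure D4:**
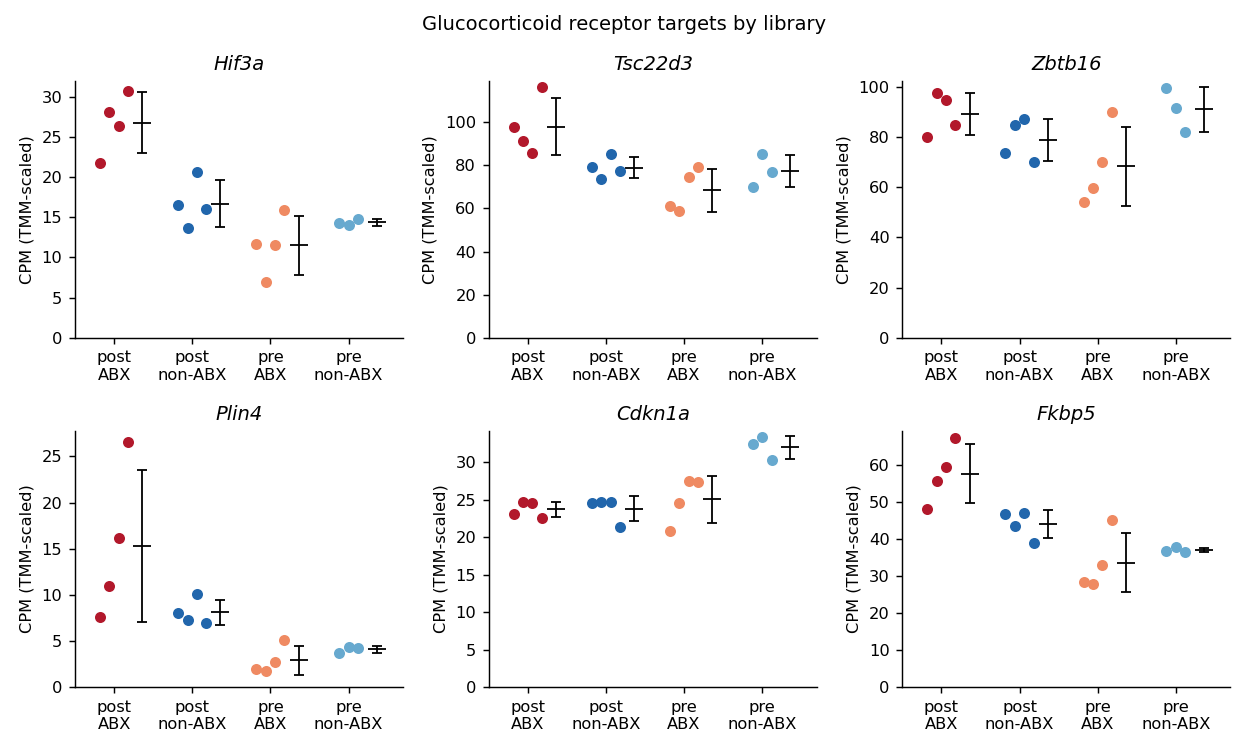
TMM-scaled CPM in each library for the 6 glucocorticoid list members of smallest interaction p, by group, with the mean and SD of each group. Hif3a, Tsc22d3 and Fkbp5 are highest in post-extinction ABX libraries, Zbtb16 is lowest on average in pre-extinction ABX libraries, Plin4 is higher after than before extinction, and Cdkn1a is highest in pre-extinction non-ABX libraries.

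Arrdc2, an arrestin-domain protein gene, had an interaction of 0.54 (SE 0.22) and Nfkbia, the inhibitor of NF-kB, 0.47 (SE 0.21); these complete the 8 members at an unadjusted p under 0.05. Angptl4, an inhibitor of lipoprotein lipase, had 0.60 (SE 0.32). Slc2a1, the glucose transporter of the blood-brain barrier, had 0.53 (SE 0.33) and Ddit4, an inhibitor of mTORC1 signalling, 0.42 (SE 0.27). The kinase genes Map3k6 and Sgk1, whose promoters held the pattern, had 0.46 (SE 0.26) and 0.37 (SE 0.20). The metallothionein genes Mt1 and Mt2, close copies of each other, both had 0.28, with SEs of 0.32 and 0.28. Near 0 were Klf9 at 0.05 (SE 0.10), Errfi1 at 0.08 (SE 0.10), Dusp1 at -0.02 (SE 0.36) and Tgm2 at -0.01 (SE 0.25). Per1, a clock gene that the receptor also induces, had 0.12 (SE 0.32).

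Many of these genes were highest in the same libraries of their groups. The mean log2 CPM over the 27 members was 4.31, 4.28, 4.49 and 4.60 in post-extinction ABX libraries, against 4.17, 4.23, 4.37 and 4.17 in post-extinction non-ABX libraries. Before extinction it was 3.89, 3.85, 3.95 and 4.33 in ABX libraries, against 4.05, 4.43 and 4.13 in non-ABX libraries. The groups overlapped at both stages on this scale. ABX replicate 4 was the highest library of its group in 18 of 27 members after extinction and in 16 before it, and pre-extinction non-ABX replicate 3 was the highest of its group in 20. The same shares over all genes were not computed, so these counts do not show whether this is particular to the list.

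Endothelial markers and GC content varied over some of the same libraries. The mean log2 CPM of 30 brain endothelial markers was 3.89, 3.67, 3.84 and 4.07 in post-extinction ABX libraries, against 4.28, 4.29, 4.26 and 4.18 in post-extinction non-ABX libraries. Before extinction it was 3.69, 3.62, 3.81 and 4.13 in ABX libraries, against 4.13, 4.33 and 4.24 in non-ABX libraries. Their summed level was 609.2 to 769.5 CPM in post-extinction ABX, 809.6 to 834.7 CPM in post-extinction non-ABX, 564 to 779.9 CPM in pre-extinction ABX and 797.6 to 883.6 CPM in pre-extinction non-ABX libraries. On the summed level ABX libraries were lower without overlap at both stages, while on the mean log2 scale pre-extinction ABX replicate 4, at 4.1332, lay just above pre-extinction non-ABX replicate 1, at 4.1289. The list had median ABX effects of -0.34 after and -0.38 before extinction, and its median interaction was 0.03 with 18 of 30 positive. The slope of log2 level on GC content per 10 percentage points was -0.123 to 0.123 in post-extinction ABX, 0.047 to 0.29 in post-extinction non-ABX, -0.411 to 0.042 in pre-extinction ABX and -0.142 to 0.319 in pre-extinction non-ABX libraries. Astrocyte markers, from cells that respond to glucocorticoids, had a median interaction of -0.01 with 9 of 21 positive. What part these differences have in the glucocorticoid values was not tested beyond the fit with the GC trend removed.

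Clock genes, several of which follow glucocorticoid rhythms, had a smaller median interaction. Of 21 tested, 16 had a positive interaction (76.2%, median 0.11), against 53.7% and 0.01 over all genes. At an unadjusted p under 0.05 there were 3 positive members, against 1.29% of all genes, and 2 negative, against 0.767%. Per3, a period gene, had 89.4, 91.3, 96.4 and 104 CPM in post-extinction ABX libraries, against 83.4, 89.6, 91.9 and 88.7 CPM in post-extinction non-ABX libraries. Before extinction Per3 had 68.5, 69.4, 71.8 and 78.9 CPM in ABX libraries, against 78.2, 85.5 and 80.6 CPM in non-ABX libraries. ABX and non-ABX libraries overlapped at both stages, by 1 library before extinction, and the interaction was 0.28 (SE 0.09). The clock output regulator Tef had 0.19 (SE 0.08) and the repressor Bhlhe41 0.34 (SE 0.13), while Rorb, an orphan receptor gene that also marks layer 4 neurons, had -0.44 (SE 0.15) and the repressor Nfil3 -0.36 (SE 0.15). The list median lay between 0.05, without pre-extinction non-ABX replicate 3, and 0.19, without pre-extinction ABX replicate 4, over single omissions, and was 0.01 in the voom fit with quality weights. No source used here gives the time of day of sampling.

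Fibroblast and interferon genes had mostly negative interactions. Among meningeal and perivascular fibroblast markers 5 of 26 were positive (19.2%, against 53.7% of all genes; median -0.21), with ABX effects of -0.19 after and 0.00 before extinction in the median. Their summed level overlapped between all groups, at 1163 to 1511 CPM in post-extinction ABX, 1098 to 1943 CPM in post-extinction non-ABX, 1076 to 1515 CPM in pre-extinction ABX and 966 to 1489 CPM in pre-extinction non-ABX libraries. The 2 of 26 members at an unadjusted p under 0.05 were positive, against 1.29% of all genes: Col6a1, a collagen VI chain, at 0.66 (SE 0.26) and Fbln2, an extracellular matrix protein gene, at 0.54 (SE 0.22). The fibroblast median was -0.07 without pre-extinction ABX replicate 4 and -0.33 without post-extinction non-ABX replicate 4. Of 33 interferon response and antigen presentation genes 9 were positive (median -0.11), with Xaf1, an interferon-induced regulator of apoptosis, at -0.46 (SE 0.20) and Mx2, a gene of the Mx GTPase family, at 0.44 (SE 0.19). Without pre-extinction ABX replicate 4 the interferon median was 0.03.

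**Figure D5:**
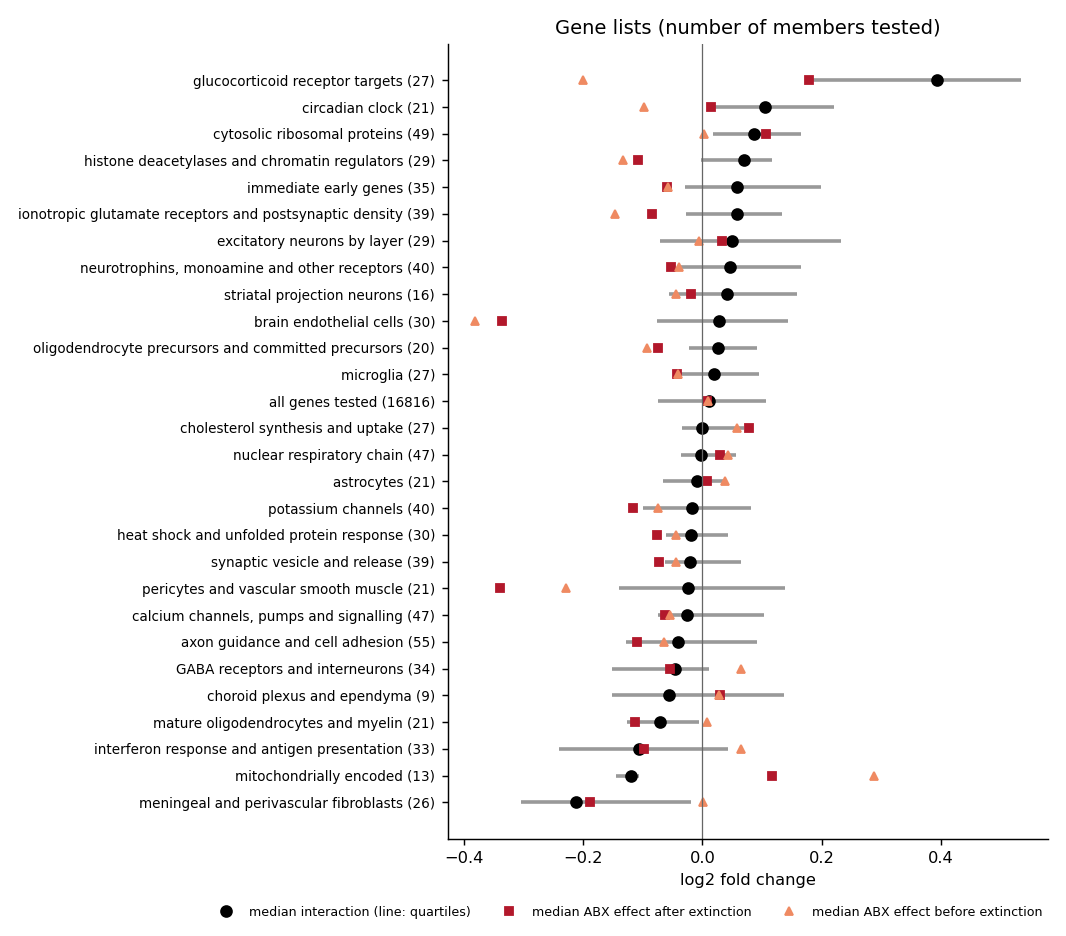
Gene lists ordered by their median interaction (black points, with quartiles as lines), with the median ABX effect after extinction (dark red squares) and before it (orange triangles) in log2 units. The glucocorticoid list lies at 0.39 with ABX effects of 0.18 and -0.20, the endothelial and pericyte lists have negative ABX effects at both stages and interactions near 0, and the fibroblast list lies at -0.21; blood cell and sex-linked genes are not drawn.

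A stage-dependent ABX effect on activity-dependent genes was not detectable at this spread. Of 35 immediate early genes 23 were positive (65.7%, against 53.7% of all genes), and the median interaction was 0.06. An unadjusted p under 0.05 was reached by 0 of them, against 2.06% of all genes. Arc, which acts at excitatory synapses, had 202, 130, 193 and 242 CPM in post-extinction ABX libraries, against 51.1, 184, 247 and 248 CPM in post-extinction non-ABX libraries. Before extinction Arc had 216, 261, 233 and 292 CPM in ABX libraries, against 169, 376 and 264 CPM in non-ABX libraries. All groups overlapped widely, so the interaction of 0.18 had an SE of 0.51 (95% interval -0.91 to 1.27). The sign was the other way without post-extinction non-ABX replicate 1 (-0.13) or pre-extinction non-ABX replicate 3 (-0.13), and in the voom fit (-0.32). The activity-induced transcription factor gene Npas4 had 0.28 (SE 0.45), with -0.02 without post-extinction ABX replicate 1. The neurotrophin gene Bdnf had -0.13 (SE 0.17), with -0.01 without pre-extinction ABX replicate 3. The 4 members of smallest p were the growth arrest gene Gadd45g at 0.70 (SE 0.33), Fosl2 at -0.27 (SE 0.14), Maff at 0.69 (SE 0.38) and Fosb at 0.33 (SE 0.22), the last 3 encoding basic leucine zipper transcription factors. Gadd45g had 0.33 without pre-extinction non-ABX replicate 3, Maff had 0.45 without pre-extinction non-ABX replicate 4, and Fosb had 0.20 without post-extinction ABX replicate 1 and 0.04 in the voom fit. The list median fell on the other side of 0 without pre-extinction non-ABX replicate 3, at -0.10, and in the voom fit with quality weights, at -0.19.

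The medians of neuronal lists lay close to the median of all genes, though the share of positive members differed between lists. Ionotropic glutamate receptor and postsynaptic density genes had 26 of 39 positive (median 0.06) and GABA receptor and interneuron genes 10 of 34 (median -0.05). Over all genes 53.7% were positive, against 29.4% in the GABA list. The GABA median stayed negative in all 24 other settings and omissions, between -0.09 and -0.02. In the GABA list Lhx6, a transcription factor of interneurons from the medial ganglionic eminence, had 0.20 (SE 0.09), and Lamp5, a marker of another interneuron class, had -0.28 (SE 0.14). Synaptic vesicle genes had 16 of 39 positive (median -0.02), potassium channel genes 15 of 40 (median -0.02) and excitatory layer markers 15 of 29 (median 0.05). Without pre-extinction non-ABX replicate 3 the glutamate receptor median was -0.02, and in the voom fit the layer marker median was -0.06. Among layer markers, Ntsr1 of layer 6 had 0.50 (SE 0.22), while Rorb of layer 4 went the other way at -0.44. At an unadjusted p under 0.05 there were 2 positive layer markers, against 1.29% of all genes, and 1 negative, against 0.767%. The serotonin receptor genes Htr4 and Htr7 had 0.73 (SE 0.34) and -0.38 (SE 0.17).

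Among the other glial and housekeeping lists, cytosolic ribosomal protein genes had 40 of 49 positive (81.6%), with a small median of 0.09. Of 13 mitochondrially encoded genes 1 was positive (7.69%), with a median of -0.12. The share over all genes was 53.7%. Processed copies of ribosomal protein genes make their counts uncertain. The share of counts in mitochondrially encoded genes was 3.47 to 5.23% in post-extinction ABX, 3.23 to 4.76% in post-extinction non-ABX, 3.80 to 6.26% in pre-extinction ABX and 3.01 to 4.44% in pre-extinction non-ABX libraries, so the groups overlapped. Mature oligodendrocyte and myelin genes had 5 of 21 positive (median -0.07), and histone deacetylase and chromatin regulator genes 21 of 29 (median 0.07). Their medians moved with single libraries, to -0.00 for myelin without post-extinction ABX replicate 2 and to 0.02 for chromatin regulators without pre-extinction non-ABX replicate 3. Microglia had 15 of 27 positive (median 0.02) and pericytes and vascular smooth muscle 9 of 21 (median -0.02). Without pre-extinction non-ABX replicate 3 the ribosomal median was 0.01 and the mitochondrial median 0.02, and in the voom fit with quality weights both were 0.01. Blood cell genes were at trace level, with 6 of 18 matched members tested and a median of 0.83, which was -0.38 without post-extinction ABX replicate 1.

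The other genes called for ABX after extinction, Krt9 and Npnt, had the same direction of effect at both stages. Both calls were lost on leaving out the same single libraries as the call of Pkp2, and without the 3 libraries richest in blood transcripts, where the edgeR adjusted p was 0.176 for Krt9 and 0.226 for Npnt. Blood genes held only 0.00151, 0.000355 and 0.000304% of counts in those 3 libraries. Their omission also leaves fewer libraries, and which of these matters was not tested. Krt9, a keratin gene, had 8.22, 8.58, 8.36 and 8.83 CPM in post-extinction ABX libraries, against 5.02, 5.90, 5.16 and 6.10 CPM in post-extinction non-ABX libraries. Before extinction Krt9 had 6.64, 6.70, 5.85 and 5.72 CPM in ABX libraries, against 4.46, 4.72 and 4.88 CPM in non-ABX libraries. ABX libraries were higher without overlap at both stages, with ABX effects of 0.62 (edgeR adjusted p = 0.0449) after and 0.41 (edgeR adjusted p = 0.311) before extinction. The Krt9 interaction was 0.21 (SE 0.13, 95% interval -0.07 to 0.48). Npnt, which encodes the matrix protein nephronectin, had 27.0, 26.5, 25.6 and 22.8 CPM in post-extinction ABX libraries, against 33.3, 38.5, 38.4 and 34.8 CPM in post-extinction non-ABX libraries. Before extinction Npnt had 29.1, 27.3, 34.2 and 30.6 CPM in ABX libraries, against 35.2, 36.9 and 34.4 CPM in non-ABX libraries. ABX libraries were lower without overlap at both stages, with ABX effects of -0.51 (edgeR adjusted p = 0.0455) after and -0.23 (edgeR adjusted p = 0.311) before extinction. The Npnt call after extinction was also lost when the replicate number was added to the fit. The Npnt interaction was -0.28 (SE 0.12, 95% interval -0.53 to -0.04, edgeR adjusted p = 1.00).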

How the data were processed

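RNA of dissected mPFC from 15 libraries was measured by RNA-seq. The deposited table holds raw read counts per gene identifier, which the authors made with CASAVA 1.8.2, STAR 2.3.0 and mm10, per the submitters' processing notes, from SMARTer Ultra Low Input V4 libraries, per the labels' protocols. The counting program, annotation and strand setting are not stated, so overlapping genes on opposite strands cannot be told apart. Groups follow the labels.

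From these counts, edgeR 4.0.16 (R 4.3.3) fitted 4 group means by quasi-likelihood after TMM scaling and filterByExpr (minimum count 10, minimum total 15), with the interaction as a contrast. SE is the log2 fold change over the square root of F, and intervals are 95%. Benjamini-Hochberg adjustment ran over 16816 genes with a threshold of 0.05. CPM are TMM-scaled, except those of Slc17a7, Drd1 and Ttr, which are counts over the library total without TMM scaling. Scores are mean log2 CPM (prior count 2). Symbols were found for 25275 of 27179 identifiers, holding 99.73% of counts, and 4671 identifiers were 0 in every library. No 2 libraries held the same counts.

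Named genes were, in each direction, the 10 with the lowest p among those with an ordinary symbol and a mean of at least 1 CPM, the 2 of smallest p per list (4 for immediate early genes), and Myh6, Krt9, Pkp2, Npnt, Arc, Npas4 and Bdnf. Further list members are given for completeness. Some genes that the rules select are not reported here. The members and lists were chosen with earlier results of these data known. Alternatives were DESeq2 1.42.0, limma 3.58.1 voom with quality weights, scaling by RLE, testing without a filter or with a stricter one (mean of 1 CPM), a replicate block, 1 surrogate variable (sva 3.50.0), removal of a GC trend (spline with 5 df, GC known for 91.18% of genes), and leaving out each library or the 3 richest in blood transcripts.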

Additional observations from a re-analysis of the deposited data

Results flagged for a closer look

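In 12 of 237 groups of 4 libraries examined (5.06%), 1 library lay far from the other 3 in the level of a named gene, and chance flags about 1 in 20 groups. After extinction in ABX libraries, Pxdn was low in replicate 1 at 98.6 CPM (others 118 to 121), Nectin3 was low in replicate 4 at 18.2 CPM (others 21 to 21.3) and Mlip was high in replicate 1 at 37 CPM (others 28.6 to 30). After extinction in non-ABX libraries, Mki67 was high in replicate 4 at 1.32 CPM (others 0.83 to 0.884) and Fbln2 was high in replicate 3 at 7.96 CPM (others 6.75 to 6.94). In the same group replicate 1 was low in Fosl2, at 26.8 CPM (others 34.2 to 35.7), and in Sema3a, an axon guidance ligand, at 19.8 CPM (others 24 to 24.5). Before extinction in ABX libraries, replicate 4 was low in Vgll3 at 1.83 CPM (others 2.5 to 2.6) and high in Maff at 1.51 CPM (others 0.819 to 0.925). The same replicate 4 was high in Fgfr3, a growth factor receptor of astrocytes, at 103 CPM (others 76.2 to 79.5), and in Gpr17, a receptor of committed oligodendrocyte precursors, at 49.4 CPM (others 40.2 to 40.6). Replicate 2 of that group was high in Ntsr1 at 7.49 CPM (others 5.35 to 5.49).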

How the results depend on the processing

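The interaction gave 0 calls in edgeR and in every alternative and omission run except DESeq2, which called 4 genes. Genes at an unadjusted p under 0.05 numbered 346, against 945 with voom, 715 with 1 surrogate variable and 567 without pre-extinction ABX replicate 4; the lowest were 217 with the stricter filter and 274 among the omissions. The correlation of ABX effects after against before extinction, 0.578, was 0.3793 with voom, 0.07832 with no filter, 0.7494 with the stricter filter, 0.3605 with 1 surrogate variable, 0.464 with the GC trend removed and 0.3706 without the 3 libraries richest in blood transcripts. Leaving out 1 library gave 0.3528 (pre-extinction non-ABX replicate 3) to 0.6083 (post-extinction ABX replicate 3). The Arc interaction was -0.3224 with voom and, over single omissions, -0.1299 (without post-extinction non-ABX replicate 1) to 0.4274, with -0.1281 without pre-extinction non-ABX replicate 3. The Npas4 interaction ranged over omissions between -0.01917 (without post-extinction ABX replicate 1) and 0.6171. The causes were not tested. The ABX calls after extinction of Krt9, Pkp2 and Npnt were lost without each of post-extinction ABX replicates 2, 3 and 4, any post-extinction non-ABX replicate, or pre-extinction non-ABX replicates 1 or 4. They stayed without the remaining libraries, apart from Krt9 and Npnt, which were also lost without the 3 blood-rich libraries. Same-numbered libraries were not more alike than others in the median. Their 21 pairs correlated between -0.491 and 0.374 (median 0.018), against a median of 0.028 for other pairs. Of 15 libraries 5 correlated best with their own number. The labels do not say whether a number stands for a pairing, and these correlations cannot exclude such a pairing. With the replicate block there were 0 interaction calls, 397 genes at an unadjusted p under 0.05, and the Npnt call after extinction was lost (edgeR adjusted p = 0.0564). The median SE of 0.16 on the log2 scale limits the interactions that these libraries can resolve, and genes under 1 CPM have wider errors still.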
